A study of Mus musculus with 16 samples.

Results

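The stellate cell and extracellular matrix genes are 40 genes of the 55357 in the count table, taken by gene symbol through their Ensembl identifiers. Their roles put them in 7 groups: 7 genes of quiescent stellate cells, 5 fibrillar collagen chains, 6 other collagen chains, 10 elastic fibre and crosslinking genes, 5 small proteoglycan and collagen-binding genes, 2 contractile genes and 5 genes of matrix turnover and signalling. The members were chosen with results of these data known, and the choice names Mfap4 in del7 livers. Cpxm2 is treated in the same way, because it may have been taken from that contrast too. For these 2 genes the difference between del7 and del7_WT, and any other that uses the same samples, is a description with no test.

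Hepatic stellate cells lie between the sinusoidal endothelium and the hepatocytes, store vitamin A as retinyl esters while quiescent, and turn into collagen-secreting, contractile myofibroblasts after injury. Fibrillar collagens form the cables of scar and portal tract. Elastic fibres are made of elastin laid on microfibrils of fibrillin with fibulins and microfibril-associated proteins, and in healthy liver they occur mainly around portal vessels, where portal fibroblasts and vascular smooth muscle cells lie.

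RNA was sequenced from frozen liver of mice altered in Terc, which makes the RNA of telomerase and also encodes the peptide TERP, with 4 libraries in each of 4 groups and no treatment. AUG livers carry the genotype labelled mTERC CUG/AUG, and AUG_WT livers are the wild types of that line. Livers called del7 carry mTERC 29_35del, a Terc lacking 7 nucleotides at positions 29 to 35, and del7_WT livers are the wild types of that line. The labels do not give age, sex or strain, do not explain CUG/AUG, and do not tie each library to its own animal. The p-values therefore cover only the spread among these libraries, and it may be technical. Terc itself is not analysed here, so genotypes were not checked against its reads. In bulk liver RNA, fewer cells of a type cannot be told apart from less RNA per cell.

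The libraries held 7714058 to 14629022 counts in genes. Levels are CPM, counts scaled to a common library size and corrected for library composition, and where 4 values are given they are replicates 1 to 4 in order. AUG_WT replicate 1 stood apart from the rest. Its 12 hepatocyte markers summed to 49722 CPM, against 111607 to 169170 CPM in the other 3 AUG_WT libraries, and all 11 lymphocyte markers together reached 404.9 CPM there, against 13.6 to 17.3 CPM. The 10 cell cycle genes summed to 412.1 CPM against 7.98 to 26.5 CPM, the 10 macrophage markers to 989.6 CPM against 384.9 to 454.5 CPM, and the 7 bile duct markers to 129.8 CPM against 22.8 to 24.2 CPM. No marker of these lists was at 0 in AUG_WT. Reads that met no annotated exon on the counted strand took 34.97% of this library, against 21.8% to 29.4% in the other 15. Multimapping reads took 9.23%, against 10.2% to 14.997%. Comparisons that use AUG_WT are therefore given with and without this library, and the part of these cells and of read quality in them was not tested.

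Among the members, 3 features are described first. Some genes of quiescent stellate cells, Ecm1, Reln and Lrat, were abundant, and none of the 7 separated a mutant group from its wild types. Of all tested genes, only 0.853% to 2.41% did so in a given direction of a given mutant comparison. A count of none among 7 is therefore not particular to them. Transcripts of type I and type III collagen were highest in AUG_WT replicate 1, with a wide gap to every other library. Mfap4, Cpxm2, Dpt, Lum and Timp2 were lower in every del7 library than in every del7_WT library. For all 5 the del7_WT group had the highest mean of the 4 groups. That is not particular to them, since del7_WT also had the highest mean for Lrat, Reln, Hgf, Ecm1 and Pdgfrb, among others. Mfap4 was picked from the contrast of del7 with del7_WT and Cpxm2 may have been. That leaves 3 of the 36 other tested members, where 1.61% of all tested genes lay wholly lower, and the feature is a description only. Of the 40 members, 38 had enough counts to be tested, all but Lox and Timp1. None of the 38 passed an adjusted p of 0.05 in edgeR, DESeq2 or limma voom in any comparison, and the counts at an unadjusted p under 0.05 are given with each comparison below. In edgeR, 0.0277% of the 14421 tested genes passed between AUG and AUG_WT and 0% between del7 and del7_WT. The share was 0.00693% for the difference between those effects and 0.0347% between AUG_WT and del7_WT.

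Per kilobase of exon, over all 16 libraries, the highest mean levels were those of Ecm1 at 46.2 CPM per kb, Dcn at 29.9, Bgn at 27.6, Col14a1 at 18.02 and Sparc at 14.04. Reln followed at 10.9 and Lrat, the enzyme that makes retinyl esters, at 7.79 CPM per kb. The fibrillar chains lay lower, with Col3a1 at 6.67, Col5a1 at 2.47, Col1a1 at 2.24, Col1a2 at 1.85 and Col5a2 at 0.716 CPM per kb. Core elastic fibre genes stood near the bottom, with Fbn1 at 1.31, Eln at 0.523 and Mfap4 at 0.381 CPM per kb, ranked 36 of 40. The lowest levels were those of Timp1, Cpxm2 and Lox, the last at 0.114 CPM per kb. The library ranges of neighbours in this order overlapped widely: in CPM, Dcn spanned 148.3 to 212.4 and Bgn 127.6 to 257.1. Ecm1, Reln and Lrat thus exceeded every fibrillar chain and Acta2 in mean CPM per kb over the 16 libraries. The other stellate genes, Hgf at 5.44, Cygb at 5.28, Pdgfrb at 3.69 and Des at 1.72 CPM per kb, lay below Col3a1. Des lay below Col5a1, Col1a1 and Col1a2 as well. This order of means did not hold in every group: in AUG_WT, Col3a1 at 8.45 exceeded Lrat at 7.87 CPM per kb.

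**Figure D1:**
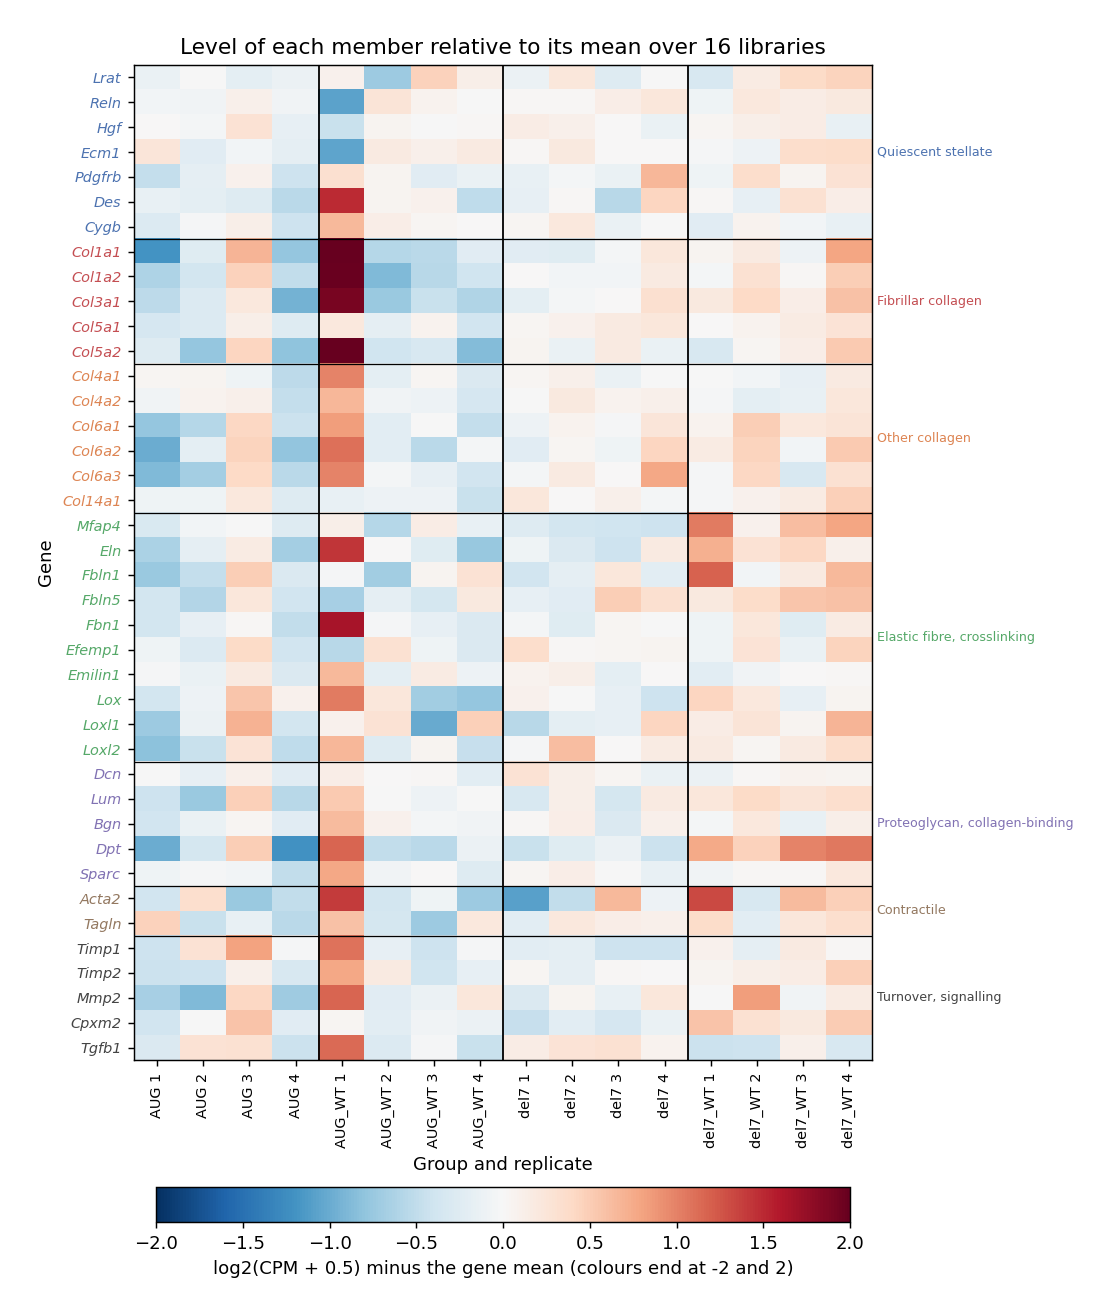
Level of each of the 40 members (rows, by role) in each of the 16 libraries (columns) as log2(CPM + 0.5) minus the mean of that gene, with colours ending at -2 and 2. The AUG_WT replicate 1 column holds the highest value of 26 members. Its Reln and Ecm1 cells are blue, and the del7_WT columns are red, in part pale, for Mfap4, Dpt and Cpxm2.

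AUG_WT replicate 1 was the highest of all 16 libraries for 26 of 40 members, where it was the highest for 28.9% of all tested genes. It was the lowest for 5 members, Reln, Hgf, Ecm1, Fbln5 and Efemp1, where it was the lowest for 25.9% of tested genes. Within the AUG group, replicate 3 was the highest for 33 of 40 members, against 21.7% of tested genes. The members moved together between libraries and are not independent of one another.

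Reln (ENSMUSG00000042453.15, chromosome 5) encodes reelin, a large secreted glycoprotein made in liver by stellate cells. It had 244.5, 240.0, 270.4 and 241.5 CPM in AUG livers, against 119.7, 302.0, 265.3 and 250.6 CPM in AUG_WT livers. The del7 livers had 256.3, 258.0, 277.4 and 297.2 CPM, against 239.1, 293.5, 282.2 and 288.7 CPM in del7_WT livers. Apart from the low value of AUG_WT replicate 1, the 4 groups overlapped. Ecm1, a secreted matrix protein known in mouse liver to keep TGF-beta latent, had 134.7, 96.9, 109.3 and 100.1 CPM in AUG livers, against 54.6, 129.2, 122.7 and 129.4 CPM in AUG_WT livers. In del7 livers it had 116.2, 130.8, 113.9 and 114.0 CPM, against 111.8, 105.6, 145.5 and 147.3 CPM in del7_WT livers. Ecm1 and Reln in AUG_WT replicate 1 were 0.430 and 0.439 times the mean of the other 3 AUG_WT libraries.

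Lrat averaged 37.8 ± 2.14 CPM in AUG livers and 42.1 ± 13.2 CPM in AUG_WT livers (SD, n = 4 each). It averaged 40.04 ± 5.84 CPM in del7 livers and 46.9 ± 10.5 CPM in del7_WT livers. Hgf, the hepatocyte growth factor, averaged 39.6 ± 5.49 CPM in AUG livers, 36.7 ± 5.49 in AUG_WT livers, 39.9 ± 3.36 in del7 livers and 40.2 ± 3.61 in del7_WT livers. Both genes differed between groups by less than the spread within them. Summed over the 7 stellate genes, del7 livers held 489.1 to 539.4 CPM and del7_WT livers 458.4 to 568.8 CPM. The AUG sums ran from 441.2 to 502.1 CPM, against 498.1 to 536.03 CPM in AUG_WT replicates 2 to 4 and 308.5 CPM in replicate 1.

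Des, the intermediate filament protein desmin, and Cygb, a haem globin of stellate cells, went the other way in that library. Des had 5.33, 5.16, 4.95 and 3.99 CPM in AUG livers, against 17.8, 6.26, 6.36 and 4.07 CPM in AUG_WT livers. Its log2 fold change was -0.84 (SE 0.36, edgeR adjusted p = 0.561) with all libraries and -0.17 without AUG_WT replicate 1. In del7 livers Des had 5.29, 6.13, 3.94 and 8.21 CPM, against 6.09, 5.30, 7.53 and 6.62 CPM in del7_WT livers, with overlap. Cygb had 9.96, 12.0, 13.2 and 9.02 CPM in AUG livers, against 19.3, 13.4, 12.5 and 12.2 CPM in AUG_WT livers. Its value was -0.38 on the log2 scale (SE 0.17, edgeR adjusted p = 0.561). Without AUG_WT replicate 1 this value was -0.18. In del7 livers Cygb had 12.5, 14.2, 11.05 and 12.1 CPM, against 10.3, 12.8, 11.7 and 10.9 CPM in del7_WT livers, where the groups overlapped. Pdgfrb, the receptor for platelet-derived growth factor on stellate cells and pericytes, ranged from 14.05 to 31.6 CPM over the 16 libraries.

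**Figure D2:**
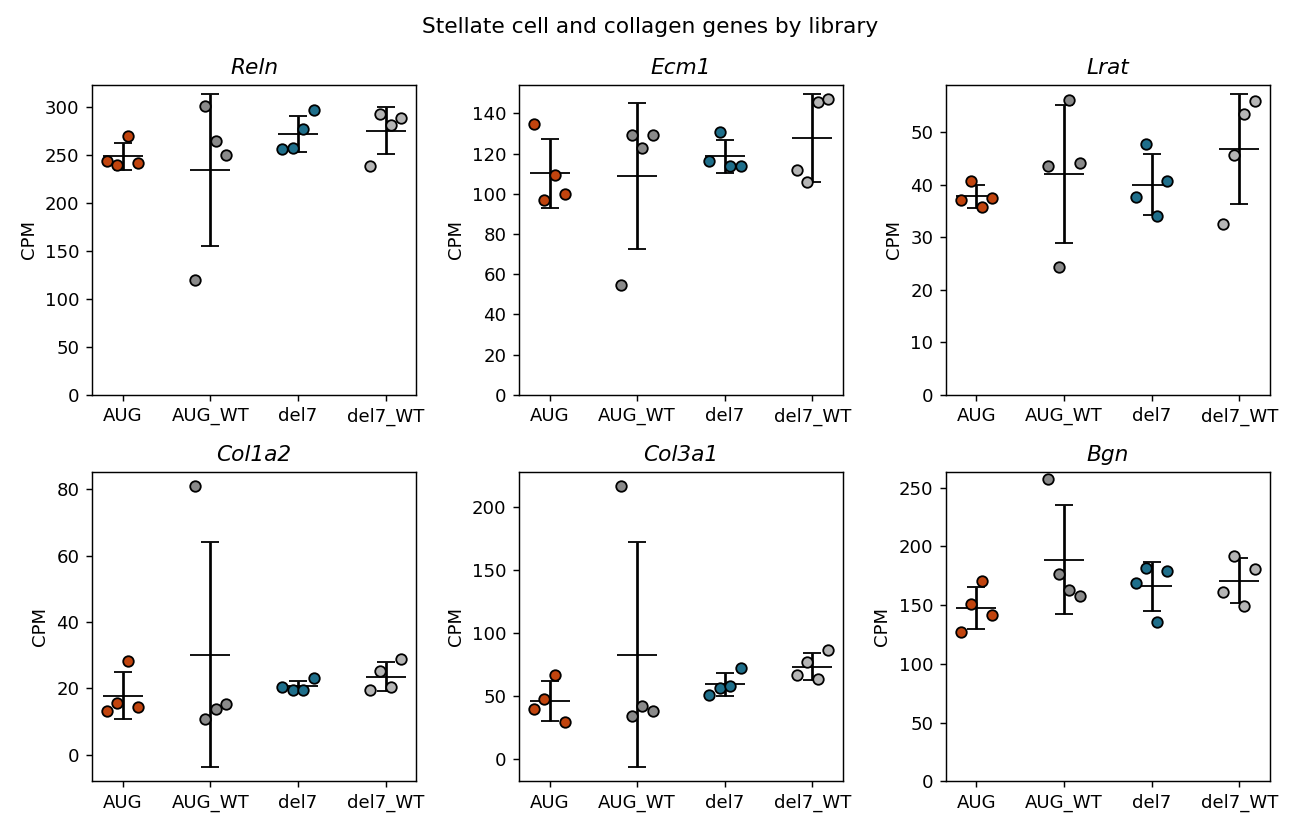
CPM of Reln, Ecm1, Lrat, Col1a2, Col3a1 and Bgn in each library (points) of the AUG, AUG_WT, del7 and del7_WT groups, with the mean (long line) and SD (bars, n = 4). In AUG_WT, replicate 1 is the lowest point for Reln and Ecm1 (119.7 and 54.6 CPM) and the highest for Col1a2, Col3a1 and Bgn (81.0, 216.7 and 257.1 CPM).

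Col3a1 (ENSMUSG00000026043.19, chromosome 1), the chain of type III collagen, had 40.3, 47.9, 67.1 and 29.7 CPM in AUG livers, against 216.7, 34.5, 42.5 and 38.0 CPM in AUG_WT livers. In del7 livers it had 50.7, 56.2, 58.4 and 72.04 CPM, against 66.7, 76.8, 63.5 and 86.8 CPM in del7_WT livers. The high value belonged to AUG_WT replicate 1 alone, and the remaining AUG_WT libraries lay within the AUG range. Col1a1 and Col1a2, which together form type I collagen, behaved alike. Col1a1 had 5.07, 10.3, 20.1 and 7.02 CPM in AUG livers, against 58.9, 8.15, 8.30 and 10.5 CPM in AUG_WT livers. Col1a2 had 13.1, 15.7, 28.2 and 14.3 CPM in AUG livers, against 81.0, 10.8, 13.6 and 15.2 CPM in AUG_WT livers.

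In del7 livers Col1a1 had 10.4, 10.3, 11.9 and 14.4 CPM, against 12.8, 14.03, 11.4 and 21.6 CPM in del7_WT livers, and Col1a2 had 20.5, 19.5, 19.4 and 23.02 CPM against 19.6, 25.2, 20.5 and 28.8 CPM. Both pairs of groups overlapped. In AUG_WT replicate 1, Col5a2 was 9.96 times, Col1a1 6.57 times, Col1a2 6.14 times and Col3a1 5.65 times the mean of the other 3 AUG_WT libraries. Col5a1, the partner of Col5a2 in the type V collagen that nucleates fibrils, was only 1.29 times that mean. It had 16.4, 17.04, 22.6 and 17.2 CPM in AUG livers, against 24.1, 18.2, 21.9 and 15.8 CPM in AUG_WT livers, and 21.4, 22.04, 23.7 and 24.4 CPM in del7 livers, against 20.9, 21.8, 23.2 and 25.3 CPM in del7_WT livers. Both pairs of groups overlapped. The Col1a2 to Col1a1 ratio of counts stayed between 1.33 and 2.58 in the 16 libraries. Per library, the summed fibrillar chains were 1.35 times the summed stellate genes in AUG_WT replicate 1 and 0.141 to 0.2998 times in the other 15 libraries.

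The promoter windows of Col1a2 and Col3a1, chains high together in that library, were taken from RefSeq on GRCm38.p6, 250 bases before to 50 after the start. They lie at chr6:4505368-4505667 on the + strand and chr1:45311288-45311587 on the + strand, and capitals mark the motifs CCAAT or TATAAA or else GGGCGG on either strand.
Col1a2: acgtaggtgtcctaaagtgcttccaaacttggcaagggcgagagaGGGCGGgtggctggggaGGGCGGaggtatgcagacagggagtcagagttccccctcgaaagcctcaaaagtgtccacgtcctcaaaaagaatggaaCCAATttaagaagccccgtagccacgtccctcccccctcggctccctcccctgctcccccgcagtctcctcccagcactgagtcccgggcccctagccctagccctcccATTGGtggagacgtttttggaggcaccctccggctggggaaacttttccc
Col3a1: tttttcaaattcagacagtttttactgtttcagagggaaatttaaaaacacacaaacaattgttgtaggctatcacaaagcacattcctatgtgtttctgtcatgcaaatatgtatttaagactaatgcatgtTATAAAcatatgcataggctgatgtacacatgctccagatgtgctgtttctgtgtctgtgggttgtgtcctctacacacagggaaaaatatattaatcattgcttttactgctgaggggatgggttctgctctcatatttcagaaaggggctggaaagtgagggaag
Col1a2 holds CCAAT and GGGCGG matches, and Col3a1 a single TATAAA.

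Of the 40 members, 26 matched the RefSeq table, with 30 windows. CCAAT was found in 30.0% of member windows and in 37.4% of the 32851 windows of all genes, TATAAA in 10.0% and 13.6%, and GGGCGG in 63.3% and 35.7%. The CArG box was searched only in its strict form, CC, then A or T bases alone, then GG. That form was in 0 of 30 member windows and in 1.63% of all windows. Looser forms were not searched, so the 0 does not mean that the members lack a CArG box. Both strands were searched, and no matches of different motifs overlapped in the member windows. These matches are letters in a window, not sites.

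Among the other collagens, Col4a1 and Col4a2 form the main type IV collagen of basement membranes. Col4a1 had 58.1, 58.8, 53.3 and 39.3 CPM in AUG livers, against 113.2, 49.4, 58.0 and 46.1 CPM in AUG_WT livers. In del7 livers it had 57.9, 60.9, 51.4 and 56.2 CPM, against 56.3, 54.5, 50.5 and 64.4 CPM in del7_WT livers. Outside AUG_WT replicate 1, the groups overlapped. The Col4a1 to Col4a2 ratio of counts ranged only from 1.39 to 2.02 over the 16 libraries. The 2 genes run head to head, and their promoter windows, shown for that reason, share 78 bases. Col4a1 lies at chr8:11312777-11313076 on the - strand and Col4a2 at chr8:11312555-11312854 on the + strand, each printed in its own direction, with capitals as above.
Col4a1: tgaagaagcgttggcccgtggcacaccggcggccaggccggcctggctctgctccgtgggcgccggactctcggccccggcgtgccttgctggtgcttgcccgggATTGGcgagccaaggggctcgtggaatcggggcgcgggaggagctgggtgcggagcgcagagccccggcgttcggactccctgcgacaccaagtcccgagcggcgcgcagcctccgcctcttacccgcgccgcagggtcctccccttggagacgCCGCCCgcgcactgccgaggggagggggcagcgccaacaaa
Col4a2: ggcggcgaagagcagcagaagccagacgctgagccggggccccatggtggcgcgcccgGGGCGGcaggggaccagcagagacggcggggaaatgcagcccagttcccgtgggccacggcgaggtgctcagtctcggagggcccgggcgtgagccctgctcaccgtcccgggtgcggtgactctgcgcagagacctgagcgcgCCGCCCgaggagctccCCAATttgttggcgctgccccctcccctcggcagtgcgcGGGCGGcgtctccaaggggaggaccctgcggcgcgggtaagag
Both windows hold a CCAAT match. Col4a1 has 1 GGGCGG match and Col4a2 has 3. The Col4a1 match lies in the shared bases and is also among those of Col4a2.

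Col14a1, a fibril-associated collagen, was the most abundant collagen per kilobase. It had 118.4, 117.3, 144.3 and 104.7 CPM in AUG livers, against 113.2, 117.2, 116.7 and 92.2 CPM in AUG_WT livers. In del7 livers it had 146, 125.9, 134.2 and 121.6 CPM, against 122.4, 132.7, 140.8 and 174.8 CPM in del7_WT livers. Every AUG_WT library lay below every del7_WT library, and the value was -0.38 on the log2 scale (SE 0.13, edgeR adjusted p = 0.311). Col6a1, Col6a2 and Col6a3, the chains of the beaded filaments of type VI collagen, were highest in AUG_WT replicate 1 and otherwise highest in AUG replicate 3 within the AUG group, where Col6a3 reached 43.1 CPM against 17.5 to 22.3 CPM in the other 3 AUG libraries.

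Mfap4 (ENSMUSG00000042436.13, chromosome 11) encodes a microfibril-associated protein that binds collagen and elastic fibres. It had 0.474, 0.404, 0.384 and 0.373 CPM in del7 livers, against 1.89, 0.743, 1.30 and 1.52 CPM in del7_WT livers. The 2 groups did not overlap. AUG livers had 0.445, 0.631, 0.666 and 0.479 CPM, against 0.772, 0.284, 0.796 and 0.559 CPM in AUG_WT livers. Among the 4 groups del7_WT was therefore the one that differed: 3 of its 4 libraries exceeded all 12 other libraries. The log2 fold change was -1.71 (SE 0.36) between del7 and del7_WT, a value that chose the gene, and -0.13 (SE 0.36) between AUG and AUG_WT.

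Mfap4 counts were small. The del7 libraries held 6, 5, 4 and 3 counts, and the del7_WT libraries 27, 8, 10 and 17, so that del7_WT replicate 1 alone gave 27 of 62 del7_WT counts. Over the alternative settings that fitted Mfap4 and gave it an adjusted p, the del7 value stayed between -1.92 and -1.50. The filter on mean CPM dropped the gene, which averaged 0.732 CPM over the 16 libraries. Between the wild types it was -1.17 (SE 0.34), and the difference between the AUG and del7 effects was 1.59 (SE 0.51). These use the same del7_WT libraries and add no separate evidence.

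**Figure D3:**
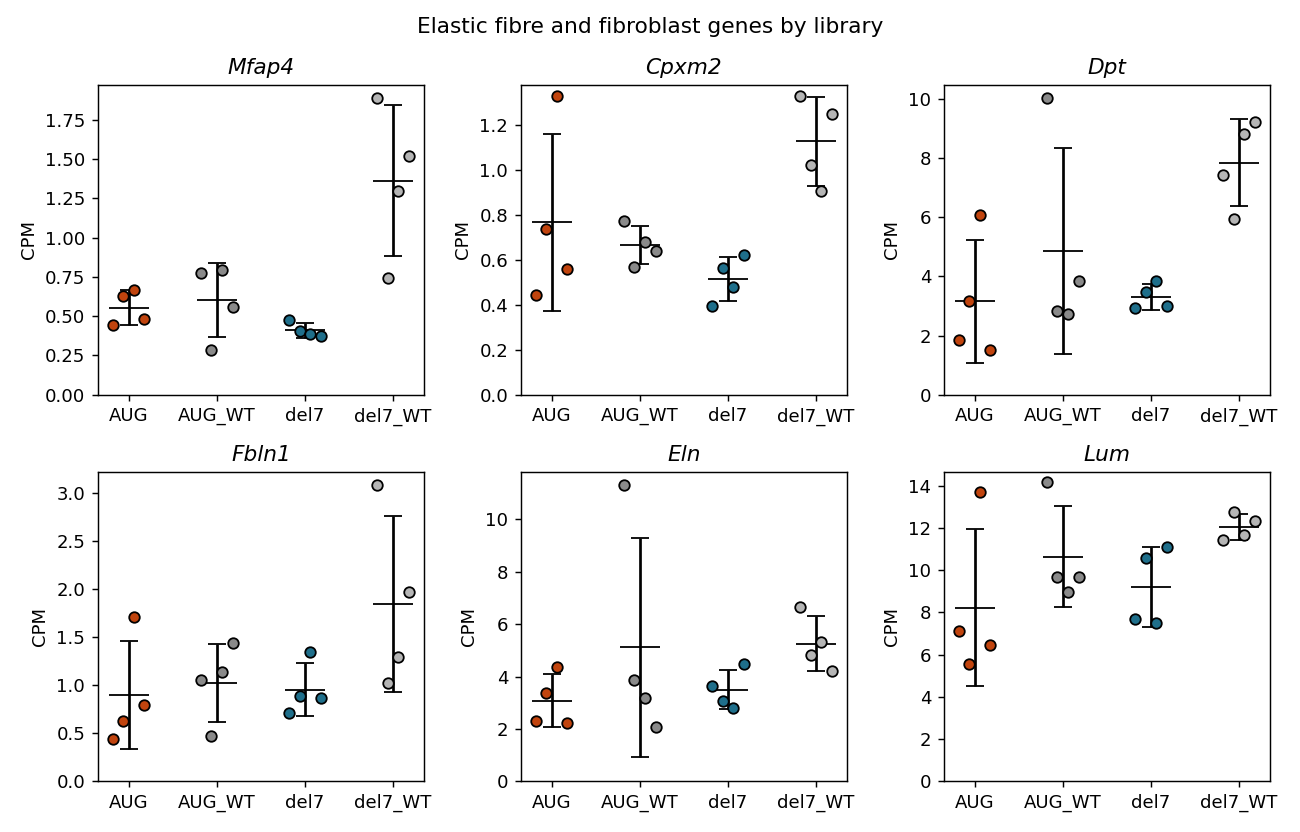
CPM of Mfap4, Cpxm2, Dpt, Fbln1, Eln and Lum in each library (points) of the AUG, AUG_WT, del7 and del7_WT groups, with the mean (long line) and SD (bars, n = 4). For Mfap4, Cpxm2, Dpt and Lum the del7 points lie below all del7_WT points, and for Dpt and Eln the highest AUG_WT point, 10.03 and 11.3 CPM, is replicate 1.

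Fbln1, a fibulin of basement membranes and elastic fibres, had 0.711, 0.888, 1.35 and 0.871 CPM in del7 livers, against 3.08, 1.02, 1.30 and 1.97 CPM in del7_WT livers. Its del7 and del7_WT groups overlapped, and the log2 fold change was -0.97 (SE 0.45, edgeR adjusted p = 1). AUG livers had 0.445, 0.631, 1.71 and 0.798 CPM, against 1.05, 0.474, 1.14 and 1.44 CPM in AUG_WT livers. Eln, the elastin gene, had 3.64, 3.07, 2.79 and 4.48 CPM in del7 livers, against 6.65, 4.83, 5.32 and 4.20 CPM in del7_WT livers. Its single overlap was del7 replicate 4 with del7_WT replicate 4. In AUG livers Eln had 2.31, 3.37, 4.38 and 2.23 CPM, against 11.3, 3.89, 3.18 and 2.08 CPM in AUG_WT livers.

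Fbln5, which in mice is required for elastic fibre assembly, had 5.29, 5.005, 8.55 and 7.59 CPM in del7 livers, against 6.94, 7.80, 8.96 and 9.21 CPM in del7_WT livers. AUG livers had 4.53, 3.79, 7.04 and 4.47 CPM, against 3.58, 5.21, 4.55 and 6.94 CPM in AUG_WT livers. The value of AUG_WT over del7_WT was -0.69 on the log2 scale (SE 0.25, edgeR adjusted p = 0.315), and only AUG_WT replicate 4 reached the lowest del7_WT library. Fbn1, the fibrillin-1 of microfibrils, had 11.4, 13.2, 15.1 and 10.4 CPM in AUG livers, against 47.6, 14.5, 13.2 and 12.1 CPM in AUG_WT livers. Its log2 fold change was -0.81 (SE 0.35, edgeR adjusted p = 0.561) with all libraries and -0.065 without AUG_WT replicate 1. In del7 livers Fbn1 had 14.5, 12.5, 15.2 and 14.8 CPM, against 13.9, 17.4, 12.5 and 16.7 CPM in del7_WT livers, and the groups overlapped.

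Efemp1, a fibulin also called fibulin-3, and Emilin1, an elastin-interface glycoprotein, were the most abundant elastic fibre members per kilobase. Efemp1 had 19.1, 15.2, 15.5 and 15.6 CPM in del7 livers, against 14.1, 18.1, 13.6 and 20.7 CPM in del7_WT livers. Emilin1 had 31.1, 32.3, 26.0 and 29.7 CPM in del7 livers, against 25.6, 28.2, 30.0 and 30.3 CPM in del7_WT livers. Neither separated the groups. AUG livers had 14.1, 12.3, 19.7 and 11.4 CPM of Efemp1, against 10.03, 18.6, 14.1 and 12.1 CPM in AUG_WT livers. Emilin1 had 29.2, 27.1, 33.8 and 24.1 CPM in AUG livers, against 47.1, 25.9, 33.3 and 27.6 CPM in AUG_WT livers, where replicate 1 was again the highest. Of the enzymes that crosslink collagen and elastin, Loxl1 ranged from 0.796 to 3.71 CPM and Loxl2 from 1.51 to 5.12 CPM over the 16 libraries. Lox was below the count minimum, with pooled counts of 24 in AUG, 31 in AUG_WT, 19 in del7 and 28 in del7_WT.

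Dpt (ENSMUSG00000026574.6, chromosome 1) encodes dermatopontin, a small matrix protein that binds decorin and collagen. It had 2.92, 3.47, 3.84 and 2.99 CPM in del7 livers, against 7.43, 5.95, 8.83 and 9.21 CPM in del7_WT livers, with no overlap. AUG livers had 1.87, 3.16, 6.09 and 1.52 CPM, against 10.03, 2.84, 2.73 and 3.83 CPM in AUG_WT livers. As for Mfap4, the AUG and del7 livers and AUG_WT replicates 2 to 4 were low and the del7_WT livers high, with AUG replicate 3 just above the lowest del7_WT library. The del7 over del7_WT value was -1.24 on the log2 scale (SE 0.44, edgeR adjusted p = 1). The Dpt promoter window, shown because Dpt had the most negative del7 value among the members with a RefSeq entry, lies at chr1:164796413-164796712 on the + strand, with capitals as above.
Dpt: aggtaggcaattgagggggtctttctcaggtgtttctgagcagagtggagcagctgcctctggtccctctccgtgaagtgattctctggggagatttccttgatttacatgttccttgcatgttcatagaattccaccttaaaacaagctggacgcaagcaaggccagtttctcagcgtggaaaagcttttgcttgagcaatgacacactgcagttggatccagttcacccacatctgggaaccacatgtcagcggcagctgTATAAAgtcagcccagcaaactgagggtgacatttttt
It holds 1 TATAAA match, 12 bases after the annotated start, and no match to CCAAT or GGGCGG.

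The main small proteoglycans were steadier. Dcn, decorin, had 212.4, 188.8, 178.2 and 158.9 CPM in del7 livers, against 160.2, 175.7, 182.6 and 181.2 CPM in del7_WT livers. In AUG livers it had 173.2, 154.2, 185.5 and 148.3 CPM, against 191.2, 174.6, 175.9 and 150.8 CPM in AUG_WT livers. Both pairs overlapped. Bgn, biglycan, had 127.6, 150.9, 170.4 and 141.5 CPM in AUG livers, against 257.1, 176.9, 162.5 and 157.6 CPM in AUG_WT livers. The Bgn value was -0.35 on the log2 scale (SE 0.16, edgeR adjusted p = 0.561), with AUG replicate 3 inside the AUG_WT range, and -0.15 without AUG_WT replicate 1. In del7 livers Bgn had 168.5, 181.2, 135.9 and 178.8 CPM, against 161.3, 191.9, 149.7 and 180.8 CPM in del7_WT livers. Lum, lumican, had 7.67, 10.6, 7.49 and 11.1 CPM in del7 livers, against 11.4, 12.7, 11.7 and 12.3 CPM in del7_WT livers. Every del7 library lay below every del7_WT library for Lum, at -0.39 on the log2 scale (SE 0.25, edgeR adjusted p = 1). Sparc, a collagen-binding glycoprotein, averaged 47.1 ± 6.63 CPM in AUG livers and 59.0 ± 20.6 CPM in AUG_WT livers, and 52.6 ± 4.42 CPM in del7 livers and 54.1 ± 4.75 CPM in del7_WT livers (SD, n = 4 each).

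The contractile genes Acta2, alpha smooth muscle actin, and Tagln, transgelin, mark both activated stellate cells and vessel walls. Acta2 had 0.948, 1.70, 4.32 and 2.36 CPM in del7 livers, against 7.22, 1.95, 4.28 and 3.76 CPM in del7_WT livers. AUG livers had 1.87, 3.37, 1.33 and 1.68 CPM, against 7.58, 1.90, 2.39 and 1.36 CPM in AUG_WT livers. Libraries within the del7 and del7_WT groups differed by more than the means of these groups, and the groups overlapped. Tagln had 3.79, 5.25, 4.996 and 4.85 CPM in del7 livers, against 5.95, 3.81, 5.32 and 5.81 CPM in del7_WT livers. In AUG livers it had 6.401, 3.16, 3.996 and 2.95 CPM, against 7.02, 3.41, 2.50 and 5.27 CPM in AUG_WT livers, and these groups overlapped too. Of 7 other smooth muscle markers, 4 could be tested and all 4 had a negative value in del7 against del7_WT, with sums of 150.1 to 195.6 CPM in del7 and 187.0 to 256.2 CPM in del7_WT livers.

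Cpxm2 (ENSMUSG00000030862.14, chromosome 7), a carboxypeptidase-like secreted protein, had 0.395, 0.565, 0.480 and 0.622 CPM in del7 livers, against 1.33, 1.02, 0.909 and 1.25 CPM in del7_WT livers, without overlap. Pooled counts were 22 in del7 and 51 in del7_WT. AUG livers had 0.445, 0.736, 1.33 and 0.559 CPM, against 0.772, 0.569, 0.682 and 0.639 CPM in AUG_WT livers. The log2 fold change between del7 and del7_WT was -1.14 (SE 0.33), and that between the wild types, which uses the same del7_WT libraries, was -0.76 (SE 0.32). As for Mfap4, del7_WT stood above the other groups, although AUG replicate 3 matched its highest library.

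Timp2, an inhibitor of matrix metalloproteinases, had 22.8, 19.5, 22.6 and 22.4 CPM in del7 livers, against 23.1, 24.3, 24.7 and 31.2 CPM in del7_WT livers, with a narrow gap between the groups. AUG livers had 16.4, 16.5, 23.9 and 17.8 CPM, against 38.3, 25.4, 16.7 and 19.8 CPM in AUG_WT livers, where replicate 1 was the highest of all libraries. Timp1, an inhibitor known to rise in liver fibrosis, had pooled counts of only 12 in AUG, 16 in AUG_WT, 2 in del7 and 8 in del7_WT, and 13 of the 16 AUG_WT counts came from replicate 1. Tgfb1, the ligand that activates stellate cells, had 16.4, 17.9, 18.3 and 15.6 CPM in del7 livers, against 10.8, 10.9, 15.8 and 11.7 CPM in del7_WT livers. Only del7_WT replicate 3 reached into the del7 range, and the log2 fold change was 0.48 (SE 0.30, edgeR adjusted p = 1). All 10 macrophage markers had a positive value as well, and their sums were 408.97 to 665.6 CPM in del7 livers against 249.7 to 402.7 CPM in del7_WT livers. Their part in the Tgfb1 value was not tested. In AUG livers Tgfb1 had 11.9, 18.1, 18.3 and 10.9 CPM, against 32.8, 12.1, 14.4 and 10.7 CPM in AUG_WT livers, the highest again being replicate 1. Mmp2, a gelatinase, ranged from 1.999 to 9.82 CPM over the 16 libraries, highest in AUG_WT replicate 1.

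Between AUG and AUG_WT, 32 of the 38 tested members had a negative log2 fold change, with a median of -0.34, against -0.038 over all tested genes. Fibrillar chains had the lowest median of the role groups, -0.85, and all 5 were negative. At an unadjusted p under 0.05, 6 members were lower, Fbn1, Des, Cygb, Bgn, Col5a2 and Mmp2, where 7.37% of all tested genes were lower, and 0 were higher, where 1.44% of all genes were. No member separated the groups in either direction, where 0.853% of tested genes did so upward and 1.2% downward. Without AUG_WT replicate 1, 22 of 38 members were negative, the median was -0.025, and none reached an unadjusted p under 0.05 in edgeR, where 3.34% of genes were lower and 2.58% higher. The fibrillar median was then 0.29, so the direction of 4 of the 5 chains turned without that library.

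**Figure D4:**
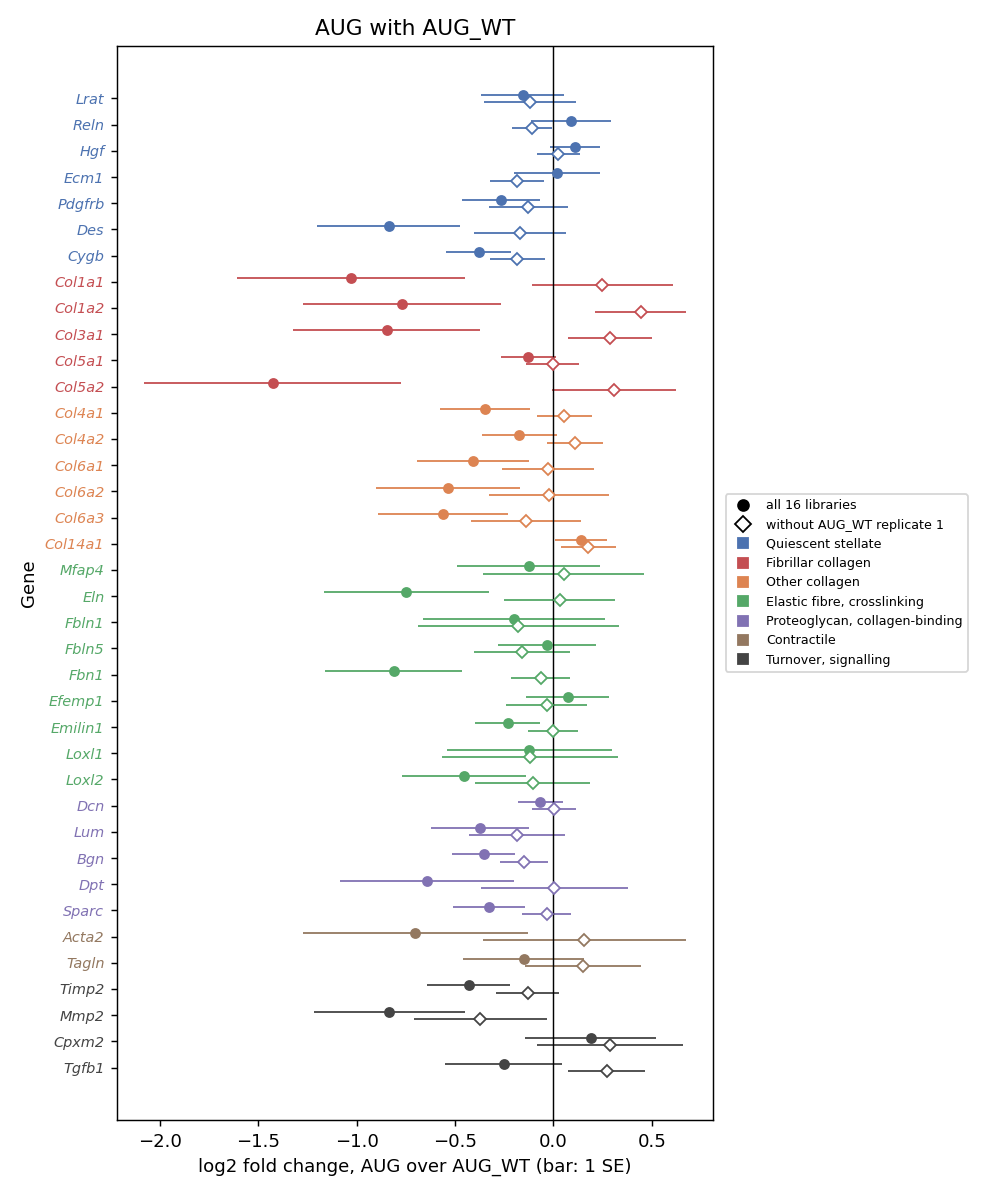
Log2 fold change (x axis, bars 1 SE) of the 38 tested members in AUG over AUG_WT, with all 16 libraries (filled circles) and without AUG_WT replicate 1 (open diamonds). Col1a1, Col1a2, Col3a1 and Col5a2 lie left of 0 with that library and right of 0 without it.

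Between del7 and del7_WT, 29 of 38 members had a negative value, with a median of -0.13, against 0.00014 over all tested genes. At an unadjusted p under 0.05, 4 members were lower, Mfap4, Cpxm2, Dpt and Fbln1, where 0.742% of all genes were lower, and 0 were higher, where 1.18% were. Mfap4 was picked from this contrast and Cpxm2 may have been, and 2 of the 36 other members remain. In 5 members every del7 library lay below every del7_WT library, Mfap4, Cpxm2, Dpt, Lum and Timp2, or 3 of the 36 others, where 1.61% of tested genes did so. No member lay wholly above, where 2.41% of genes did. Since members were chosen with this contrast known, these counts are a description only. The stellate median was -0.037, the fibrillar -0.19, the elastic -0.32 and the proteoglycan -0.041.

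Other cell types could carry matrix genes. In del7 against del7_WT the median log2 fold change was -0.38 for smooth muscle, -0.48 for mesothelial and -0.15 for portal fibroblast genes. For endothelial markers it was 0.057. Besides the smooth muscle markers, 6 of 7 mesothelial markers could be tested and all 6 were negative, with sums of 5.49 to 23.9 CPM in del7 and 8.76 to 41.5 CPM in del7_WT livers. Of 12 portal fibroblast genes, 6 could be tested, 5 of them negative and 1 positive. Their sums were 91.9 to 179.1 CPM in del7 and 65.2 to 119.8 CPM in del7_WT livers. Mfap5, a gene of that list below the count minimum, had pooled counts of 0 in del7 and 3 in del7_WT livers, too few to compare. The 10 endothelial markers summed to 620.1 to 716.05 CPM in del7 and 574.2 to 720.6 CPM in del7_WT livers. The part of these cells in the Mfap4, Cpxm2 and Dpt values was not tested.

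For the difference between the AUG effect and the del7 effect, 14 members had a positive and 24 a negative value, with a median of -0.19 against -0.039 over all tested genes. Beside Mfap4 and Cpxm2, which are not tested here, no member was higher at an unadjusted p under 0.05, where 0.922% of all genes were. Cygb was the single lower member, at -0.51 (SE 0.23, edgeR adjusted p = 0.864), where 4.29% of genes were lower. Tgfb1 followed at -0.73 (SE 0.42, edgeR adjusted p = 0.864), and at -0.20 without AUG_WT replicate 1. Without AUG_WT replicate 1, 26 members were positive and 12 negative, the median was 0.090, Cygb stood at -0.30, and Dpt at 1.25 (SE 0.49) joined the higher members, where 1.43% of genes were higher. No member was then lower at that level, where 1.59% of genes were. For no member, then, was the AUG effect shown to differ from the del7 effect after adjustment.

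AUG_WT and del7_WT are both wild type, and this contrast shares its libraries with the mutant comparisons. With all libraries, 15 members had a positive and 23 a negative value, with a median of -0.097 against 0.033 over all tested genes. At an unadjusted p under 0.05, 2 of the 36 members other than Mfap4 and Cpxm2 were lower, Col14a1 and Fbln5. Of all genes 2.57% were lower, and 0 members were higher, where 9.23% of genes were. Mfap4 and Cpxm2 were lower too, which is a description with no test. Of those 36, 1 separated the groups downward, Col14a1, where 1.53% of tested genes did so, and none did so upward, where 2% did. Cpxm2 lay lower without overlap as well, again as a description.

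Without AUG_WT replicate 1, more members reached an unadjusted p under 0.05 between the wild types, though none passed after adjustment. Then 36 of 38 members had a negative value, with a median of -0.34, against -0.0039 over all tested genes. At an unadjusted p under 0.05, 13 were lower, 11 of them among the 36 members other than Mfap4 and Cpxm2. Of all genes 3.52% were lower, and 0 members were higher, where 3.95% of genes were. After adjustment 0.0686% of all tested genes passed. The 13 included Col3a1 at -0.96 (SE 0.22), Col1a2 at -0.85 (SE 0.23), Col5a2 at -0.73 (SE 0.31) and Col5a1 at -0.31 (SE 0.13), 4 of the 5 fibrillar chains. Dpt at -1.33 (SE 0.36), Eln at -0.81 (SE 0.28), Acta2 at -1.24 (SE 0.50) and Fbln5 at -0.57 (SE 0.24) were others. In 9 members, 8 of them among those 36, the 3 remaining AUG_WT libraries all lay below the 4 del7_WT libraries, where 3.22% of genes did so. In none did they all lie above, where 4.54% did so. For Col3a1 these were 34.5, 42.5 and 38.0 CPM in AUG_WT against 66.7, 76.8, 63.5 and 86.8 CPM in del7_WT. The stellate median was -0.043 and the fibrillar median -0.76.

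**Figure D5:**
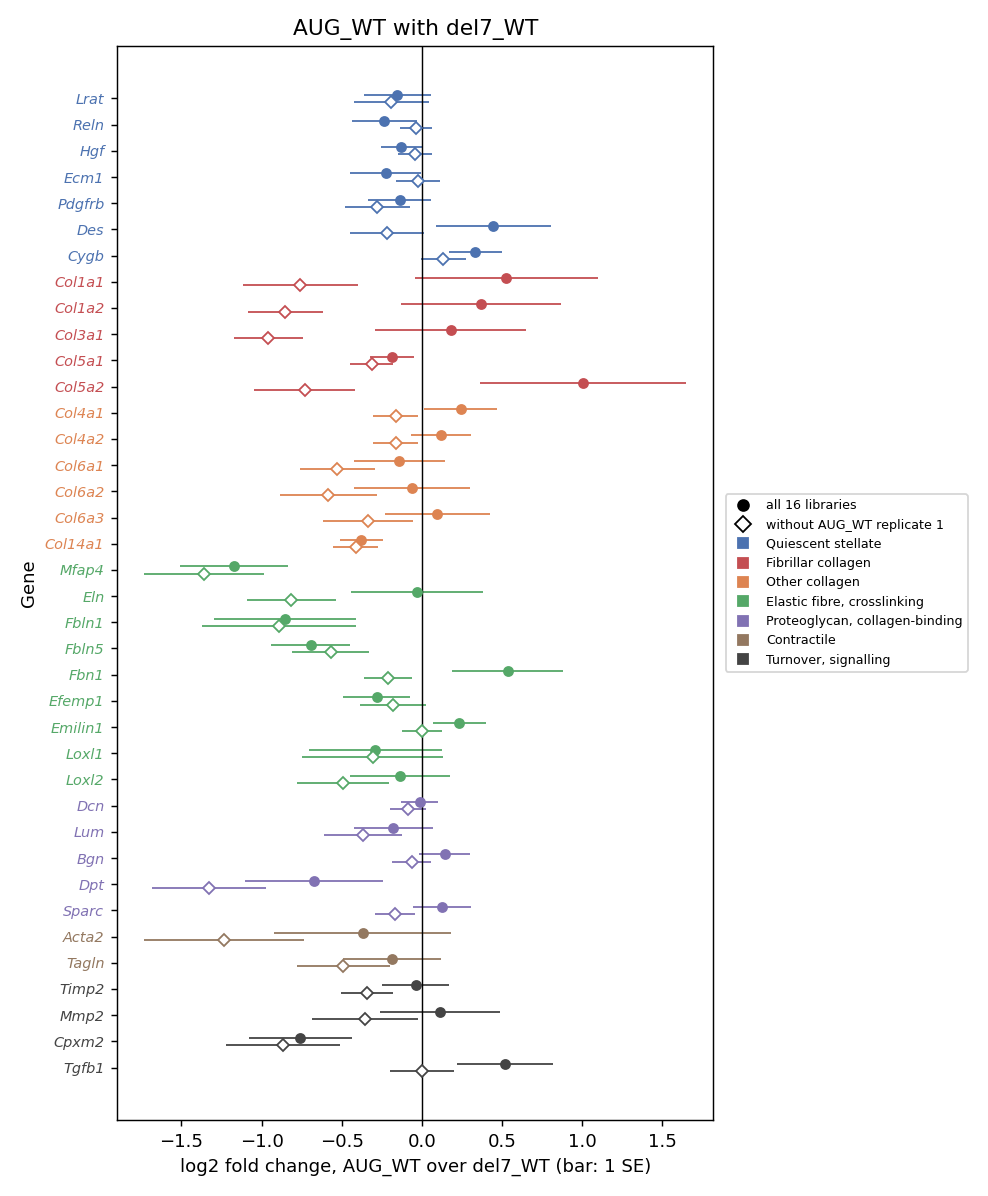
Log2 fold change (x axis, bars 1 SE) of the 38 tested members in AUG_WT over del7_WT, with all 16 libraries (filled circles) and without AUG_WT replicate 1 (open diamonds). Without that library 36 of the 38 points lie left of 0, among them all 5 fibrillar chains.

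Wider lists around the members gave no gene past an adjusted p of 0.05 in edgeR. Of 23 tested further stellate cell genes, 10 had positive and 13 negative values in AUG against AUG_WT, or 8 and 15 without AUG_WT replicate 1, and 11 had positive and 12 negative values in del7 against del7_WT. Ntm and Pdgfra, a second receptor for platelet-derived growth factor, had the smallest p in the AUG comparison, at 0.71 (SE 0.32) and -0.47 (SE 0.21, edgeR adjusted p = 0.561 for both). They stood at 0.47 and -0.19 without AUG_WT replicate 1. Of 14 genes that process collagen, 7 had positive and 7 negative values in AUG, or 9 and 5 without that library, and 5 positive and 9 negative in del7. Crtap, a helper of prolyl 3-hydroxylation, was lower in every AUG library than in every AUG_WT library, at -0.54 (SE 0.14, edgeR adjusted p = 0.561), and at -0.53 without AUG_WT replicate 1. The share of all tested genes that lay wholly lower in AUG was 1.2%. Among 31 other matrix genes, 13 had positive and 18 negative values in AUG, or 15 and 16 without that library, and 15 positive and 16 negative in del7. Ltbp3, a binding protein of latent TGF-beta, separated AUG from AUG_WT at -0.80 (SE 0.22, edgeR adjusted p = 0.561), and at -0.60 without AUG_WT replicate 1.

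In the same list, Emilin2 separated del7 from del7_WT at 0.92 (SE 0.36), where 2.41% of all tested genes lay wholly higher. Fmod, the proteoglycan fibromodulin, was -0.91 (SE 0.39) in that comparison. Between AUG_WT and del7_WT the groups did not overlap for Fmod, where 1.53% of all tested genes lay wholly lower. Its value there was -1.25 (SE 0.40) with all libraries and -1.36 without AUG_WT replicate 1. None of these passed (edgeR adjusted p = 1 for del7 and 0.287 for the wild types). Of 6 tested portal fibroblast genes, 2 had positive and 4 negative values in AUG, or 4 and 2 without that library. Of 21 tested genes of the TGF-beta pathway, 8 had positive and 13 negative values in AUG, or 9 and 12 without it, and 13 positive and 8 negative in del7. Medians of the 5 lists lay between -0.15 and 0.035 in both mutants with all libraries. With AUG_WT replicate 1 left out, the AUG medians lay between -0.14 and 0.19, and the portal fibroblast median turned from negative to positive, -0.15 with that library and 0.19 without it.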

How the data were processed

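Per the labels' protocols, total RNA of frozen mouse liver (10 mg of tissue, 550 ng of RNA) was depleted of ribosomal RNA and made into strand-specific libraries. Per the submitters' processing notes, cutadapt 2.10, STAR 2.7.9a and GRCm39 were used. Of the annotation, the release is not given in those notes. The deposited values are the authors' raw integer counts for each gene, with no normalization. The series table, all 16 columns of which matched a sample by title, equalled the fourth column of all 16 per-sample tables and was used as deposited. GENCODE M21, on GRCm38, supplied names for 52081 of 55357 identifiers, chromosomes and exon lengths, so values per kilobase and lengths rest on that release.

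Counts were fitted with edgeR 4.0.16 in R 4.3.3. filterByExpr with a minimum count of 10 kept 14421 genes. After TMM scaling, 1 mean per group was fitted to all 16 libraries, leaving 12 residual degrees of freedom, and contrasts were tested with glmQLFTest, two-sided, with Benjamini-Hochberg adjustment over all tested genes and a threshold of 0.05. CPM values use the TMM-scaled library sizes. Groups are called not overlapping where every library of one lies on 1 side of every library of the other. The scripts were tested on simulated data.

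Members and lists were chosen with earlier results of these data known. Values per library are given for Mfap4 and Cpxm2, for the 4 tested members with the smallest p in each comparison, and for the 2 genes of highest CPM per kb in each role group. Hgf, Lrat, Pdgfrb, Col1a1, Col1a2, Col5a2, Col4a2, Col6a1, Col6a2, Col6a3, Eln, Lum, Sparc, Loxl1, Loxl2 and Mmp2 fall outside that rule and were picked after their values were seen. Lists of other stellate cell, portal fibroblast, collagen processing, matrix and TGF-beta pathway genes, and of markers of other liver cells, were counted. From them Ntm, Pdgfra, Crtap, Ltbp3, Emilin2 and Fmod were named for their values in the same comparisons, and Mfap5 for its pooled counts. Alternatives were DESeq2 1.42.0, limma 3.58.1 voom, RLE size factors, a mean of at least 1 CPM, no filter, the unstranded column, a replicate block, the compared groups alone and each library left out.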

Additional observations from a re-analysis of the deposited data

Results flagged for a closer look

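For each of the 38 tested members, the highest and the lowest library of each group were compared with the nearest other library, and a library was marked where that gap took more than 0.829 of the range of the group. Of 152 groups 16 were marked, where chance marks about 1 in 20, and 8 of the 16 were AUG_WT replicate 1. In that library Col3a1 was high with 0.887 of the range, Col1a1 with 0.875, Fbn1 with 0.866, Lum with 0.838, Col5a2 with 0.836 and Col1a2 with 0.833. Ecm1 was low there with 0.939 and Hgf with 0.885.

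Among AUG livers, Reln (0.844) and Col5a1 (0.839) were high in replicate 3, at 270.4 and 22.6 CPM, and Sparc was low in replicate 4 (0.877). Col14a1 was low in AUG_WT replicate 4 (0.857), at 92.2 CPM. Among del7 livers, Efemp1 was high in replicate 1 (0.894), Ecm1 in replicate 2 (0.860) and Pdgfrb in replicate 4 (0.858), at 31.6 CPM, while Timp2 was low in replicate 2 (0.875), at 19.5 CPM. No del7_WT group was marked. Without AUG_WT replicate 1 the values that rest on it are given in the results above.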

How the results depend on the processing

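Under each of the 24 alternatives, 16 of which left out a library, no member passed an adjusted p of 0.05 in any comparison, and the medians kept their sign except as follows. Leaving out libraries one at a time moved the member median from -0.45 to -0.025 for AUG, from -0.35 to 0.090 for the difference of effects and from -0.34 to 0.020 for the wild types. Members lower at an unadjusted p under 0.05 then numbered 0 to 13 for AUG, 0 to 2 for the difference and 2 to 13 for the wild types. Those higher numbered 0 to 1 for del7, 1 to 3 for the difference and 0 to 4 for the wild types. Members lower in AUG numbered 13 without AUG replicate 3, 10 without AUG_WT replicate 4 and 0 without AUG_WT replicate 1 or AUG replicate 4. The share of all tested genes moves with the setting too: 7.37% were lower in AUG with all libraries and 3.34% without AUG_WT replicate 1. For the other settings that share is not given, so the counts in this paragraph cannot be read as particular to the members. They include Mfap4 and Cpxm2 wherever these were fitted. Lower members numbered 2 in AUG with limma voom, 1 with a replicate block and 0 with the compared groups alone, a fit that also gave 1 higher member in del7. With a mean of at least 1 CPM, del7 had 1 lower member, the difference 0 higher and the wild types 2 lower. The difference had 0 lower with no filter, with the unstranded column and with a replicate block. Same-numbered replicates were not taken as paired, since in no comparison did all 4 correlations exceed 0.1 (-0.117, -0.0923, -0.157 and 0.351 for AUG with AUG_WT, -0.070 to 0.057 between the wild types). For del7 with del7_WT they were all positive, at 0.176, 0.275, 0.283 and 0.0919, and the block left 4 lower members there. Mfap4 in AUG turned positive without AUG_WT replicate 1 (0.052) and without AUG_WT replicate 3 (0.020), over a range of -0.34 to 0.052, and Cpxm2 in AUG ranged from -0.21, without AUG replicate 3, to 0.38 over the libraries left out, and was 0.46 with the unstranded column. Where a value turned, the cause was not tested. DESeq2 gave some members no adjusted p. Low counts of Mfap4, Cpxm2, Fbln1, Lox and Timp1 limit what could be detected for them.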
